A study of Rattus norvegicus with 7 samples.

Results

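Selenoprotein P (Sepp1, named Selenop in current rat annotation) and the enzymes that remove peroxides were followed in rat bone marrow mesenchymal stem cells (rMSCs) on 3 culture surfaces. The 10 genes were taken by symbol, and all 10 of them were found among the 17147 symbols measured. They were Sepp1, the glutathione peroxidases Gpx1, Gpx3 and Gpx4, the peroxiredoxins Prdx1, Prdx2, Prdx3, Prdx5 and Prdx6, and catalase (Cat). The set was chosen by the FPKM values on culture plastic and on the films, where Sepp1 was higher on plastic, so the values of these genes on plastic are given as a description, with no test.

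The rMSCs were primary cells from the marrow of 1 male Sprague-Dawley rat aged 6 weeks. They were grown in alpha MEM with fetal bovine serum and the labels name no genetic change in any group. For sequencing, 20000 cells were seeded and collected after 4 h, either on uncoated tissue culture plastic (TCP, 1 library), on films of polycaprolactone (PCL, 3 libraries) or on films of ISB-P (3 libraries). ISB-P is the polyurethane copolymer of polycaprolactone and propoxylated isosorbide. Both films were 16 mm across and were sterilized with EO gas. The labels give no number of rats beyond this and do not say that replicates came from separate cultures, so p-values measure the spread between these libraries, which may be technical. Levels are FPKM, which correct the number of fragments for the length of a transcript and the size of its library, so that levels of different genes can be set side by side. Summed over all symbols, FPKM came to 539393 for TCP. The sums for PCL were 542921 (replicate 1), 559058 (replicate 2) and 597954 (replicate 3), and those for ISB-P were 592929, 590628 and 660124. The number of reads behind them is unknown. A value after ± is the SD over the 3 libraries of a film.

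The cells carried markers of mesenchymal stem cells. Of 8 listed, Thy1 and the integrin Itgb1 were the most abundant. Thy1 was 1209.8 FPKM on TCP, 1001 ± 51.0 (SD, n = 3) on PCL and 959.9 ± 30.5 (SD, n = 3) on ISB-P, and Itgb1 was 481, 655 ± 197 and 789.7 ± 335 FPKM. Nt5e and Eng of the same list were much lower. Nt5e was 9.56 FPKM on TCP and 8.13 to 12.9 on the films, and Eng was 19.2 FPKM and 11.1 to 16.9. The red cell genes and the endothelial genes, 6 of each in the files, stayed under 1 FPKM in all 7 libraries. The most abundant of them were Ahsp, with 0.419 FPKM on TCP and at most 0.780 on the films, Alas2, listed at 0 on TCP, Vwf, with 0.242 on TCP, and Kdr, with 0.0724 on TCP and at most 0.365 on the films. Of the 10 macrophage and other blood cell markers, 9 were higher in the TCP library than in all 6 film libraries, where 25.4% of all tested genes were. Only 4 of the 10 were high enough to be tested. Their summed level was 134 FPKM on TCP, 44.8 ± 3.86 (SD, n = 3) on PCL and 45.2 ± 3.73 (SD, n = 3) on ISB-P. The most abundant was Lyz2, at 72.9 FPKM on TCP and 16.6 to 27.2 on the films. Cd14 was 31.7 FPKM on TCP and 10.9 to 16.6 on the films. The defining marker Ptprc was low, at 1.48 FPKM on TCP and 0.433 to 1.23 on the films, and Cd163 was listed at 0 in every library.

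Hydrogen peroxide and lipid peroxides are removed by 3 kinds of enzyme. Glutathione peroxidases use glutathione, peroxiredoxins use a reactive cysteine that thioredoxin or glutathione restores, and catalase, an enzyme of the peroxisome, needs no reducing partner. Gpx1, Gpx3 and Gpx4 carry the amino acid selenocysteine at the active site. Selenoprotein P is a secreted protein with several selenocysteines that carries selenium between tissues, and many cell types make some of it. Several of these genes, Prdx1 among them, are known targets of NRF2, a transcription factor that binds antioxidant response elements.

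The promoter of Prdx1 is shown because Prdx1 had the largest difference between the films among the 10 genes. The 250 bases before its start site (RefSeq, GRCr8, chr5:135383656-135383905, plus strand) hold 1 match to the core of the antioxidant response element, TGACNNNGC, read on the minus strand, and the match is in capitals.

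Prdx1 promoter: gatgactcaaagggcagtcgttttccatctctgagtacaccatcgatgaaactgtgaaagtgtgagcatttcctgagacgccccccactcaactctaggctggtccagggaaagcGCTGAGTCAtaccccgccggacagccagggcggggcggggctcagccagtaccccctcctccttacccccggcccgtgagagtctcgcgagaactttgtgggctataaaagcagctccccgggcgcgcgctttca

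The match lay 135 to 127 bases before the start site. Both strands of windows of 300 bases, 250 before and 50 after the start, were searched for all genes in the RefSeq table. A match to TGACNNNGC was found in 12.1% of 33469 windows. Among the 10 genes, 9 had a window, and Prdx1 and Prdx5 held a match. The match in Prdx5 covered its start site. The forkhead core GTAAACA, found in 3.78% of windows, was searched because forkhead factors are known regulators of Sepp1. Among the 9 genes it was found only in the window of the second Sepp1 start site, 43 to 37 bases before it on the plus strand. It is in capitals in the 30 bases that surround it (chr2:54225857-54225886, plus strand).

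Sepp1 forkhead match: tcagagggcgagGTAAACAagagggctata

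These matches describe the letters of the windows. Binding was not measured.

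Among the 10 genes Sepp1 had the widest gap between plastic and the films in the upward direction. It was 85.2 FPKM on TCP. On PCL it was 9.71, 15.7 and 15.3 FPKM in replicates 1, 2 and 3, and on ISB-P it was 10.0, 14.5 and 19.5 FPKM. The TCP value was 4.37 times the highest film library and 6.04 times the mean of the 6 film libraries. On the log2(FPKM + 1) scale, which understates changes of low values, TCP lay 2.55 above the film mean. Against the PCL mean alone it lay 2.59 above, and against the ISB-P mean alone 2.51 above. On each film the replicate 1 library was the lowest, and the 2 films overlapped. Their means were 13.6 ± 3.36 FPKM (SD, n = 3) on PCL and 14.7 ± 4.75 (SD, n = 3) on ISB-P, a log2 difference of 0.09 (standard error 0.28, adjusted p = 0.960 in limma). By level Sepp1 was the lowest of the 10 genes on both films. On TCP it was eighth, with Cat at 84.4 FPKM just under it and Prdx3 the lowest at 64.5. With 1 TCP library, the order of neighbours there has no spread to set it against.

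**Figure D1:**
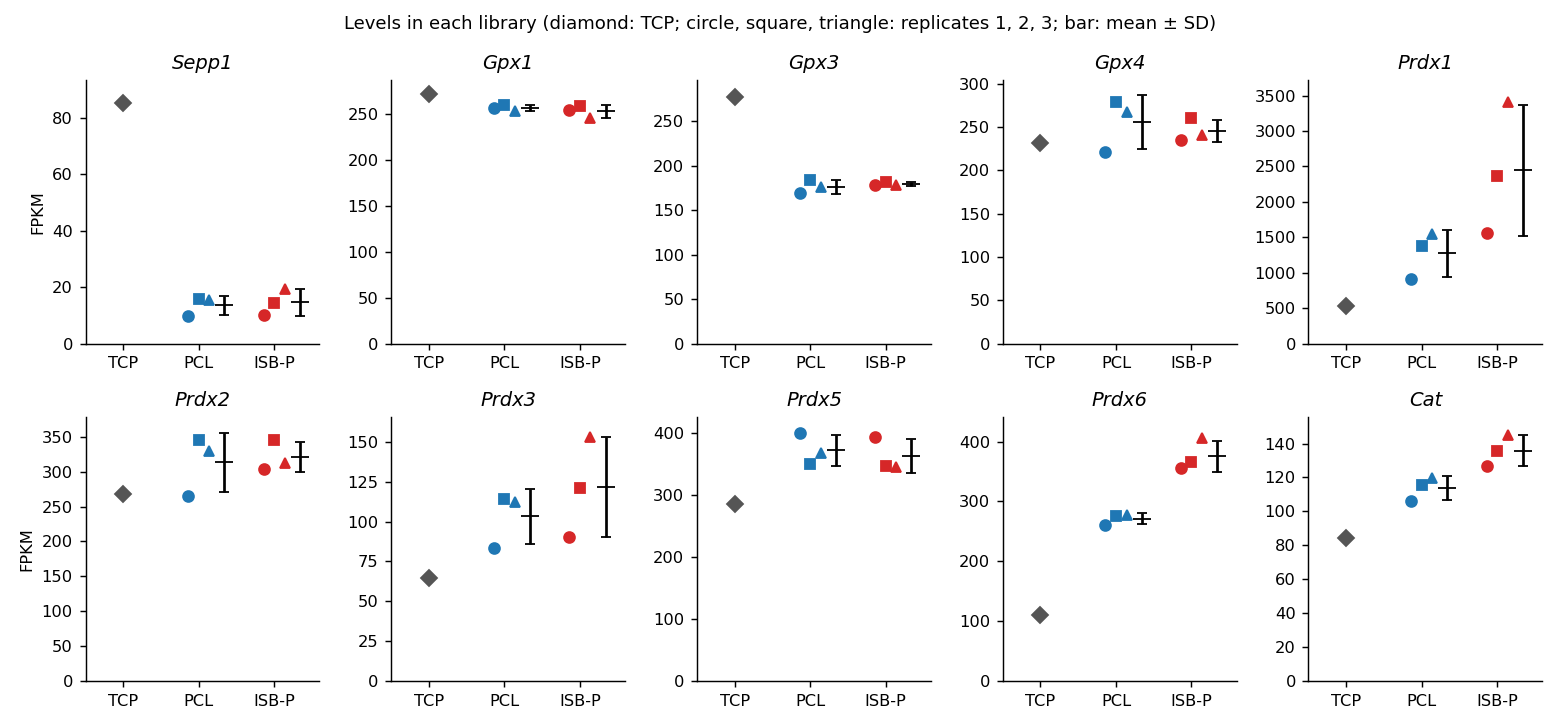
FPKM of each of the 10 genes (vertical axes from 0, a scale for each gene) in the TCP library (diamond) and in replicates 1, 2 and 3 (circle, square, triangle) of PCL and ISB-P, with the mean and SD of each film as a black bar. Sepp1 was 85.2 FPKM on TCP and at most 19.5 on the films, while for Prdx1, Prdx6 and Cat the ISB-P libraries all lay above those of PCL and TCP was lowest.

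Other genes of the macrophage list and of the adipocyte list were also higher on TCP, and their part in the Sepp1 value was not tested. All 4 tested macrophage markers and both tested adipocyte markers were over 2-fold higher on TCP than on the film mean. Of all tested genes, 3.49% were. The median log2 difference of the 4 macrophage markers was 1.36. Fabp4 was 71.1 FPKM on TCP and 19.0 to 40.6 on the films, and Lpl was 35.5 FPKM and 9.18 to 16.8. Adipoq, a defining marker, was 1.58 FPKM on TCP and at most 0.332 on the films, and Lep was at most 0.0576 FPKM in any library. The summed level of the 6 adipocyte genes was 116 FPKM on TCP, 37.6 ± 8.37 (SD, n = 3) on PCL and 43.2 ± 13.2 (SD, n = 3) on ISB-P. Fewer cells of a type and less RNA per cell cannot be told apart in these bulk samples.

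The 5 genes whose pattern over the 7 libraries was most like that of Sepp1 were Rnase4, Ebp, Gpnmb, Itgbl1 and Colec12. Their Pearson r with Sepp1 on log2(FPKM + 1) ranged from 0.988 to 0.996, among 4801 tested genes whose mean reached 16 FPKM. The r rests mostly on the TCP library, and it is a description over 7 libraries. Rnase4, a secreted ribonuclease, was 59.8 FPKM on TCP and 25.5 to 34.7 on the films. Gpnmb, a membrane glycoprotein, was 73.7 FPKM on TCP and 27.8 to 34.8 on the films. Itgbl1 was 92.1 FPKM on TCP and 19.9 to 37.7 on the films. Ebp, a sterol isomerase of cholesterol synthesis, was at 69.8 FPKM on TCP and Colec12, a scavenger receptor, at 40.0. As in Sepp1, replicate 1 was the lowest library of each film for all 5 genes.

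The gene Ccdc152 overlaps Selenop in the RefSeq annotation, and its level was at most 0.553 FPKM. The known receptors that take up selenoprotein P could be followed for 2 genes. Lrp1 was 135.5 FPKM on TCP, 78.9 ± 7.02 (SD, n = 3) on PCL and 73.8 ± 11.3 (SD, n = 3) on ISB-P, and did not pass the test between the films (adjusted p = 0.919 in limma). Lrp2 was at most 0.0178 FPKM. Lrp8 was not analysed here.

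None of the 3 glutathione peroxidases passed the test between the films. Gpx1, the abundant cytosolic enzyme, was 256, 259 and 253 FPKM on PCL, 254, 259 and 245 on ISB-P and 272 on TCP. Its coefficient of variation over the 6 film libraries was 2.01%, the lowest of the 10 genes. Gpx3, the secreted enzyme, was 169, 184 and 176 FPKM on PCL and 179, 182 and 178 on ISB-P. On TCP it was 277 FPKM, which is 1.51 times the highest film library. Gpx4, which removes lipid peroxides in membranes, was 221, 279 and 268 FPKM on PCL, 235, 260.3 and 241 on ISB-P and 232 on TCP, inside the range of the films. The log2 differences between ISB-P and PCL were -0.02 for Gpx1, 0.03 for Gpx3 and -0.05 for Gpx4, with standard errors of 0.10, 0.11 and 0.13. Their adjusted p-values in limma were 0.971, 0.963 and 0.949. The sum of the 3 genes was 688 ± 38.7 FPKM (SD, n = 3) on PCL, 678 ± 20.2 (SD, n = 3) on ISB-P and 781 on TCP. In the order of levels on the films, Gpx1 and Gpx4 were neighbours that did not differ beyond their spread.

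Of the other glutathione peroxidases and peroxiredoxins, 3 of 6 were tested and none passed between the films, with or without the replicate block. Gpx8, an enzyme of the endoplasmic reticulum, was 289.9 FPKM on TCP, 293 ± 40.4 (SD, n = 3) on PCL and 327 ± 86.8 (SD, n = 3) on ISB-P. Prdx4, a peroxiredoxin of the same compartment, was 91.7 FPKM on TCP, 116 ± 29.9 for PCL and 117 ± 29.2 for ISB-P. Gpx7 was the third gene tested. Gpx2 stayed under 1 FPKM in every library, and Gpx5 and Gpx6 were listed at 0 in all 7.

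Among the peroxiredoxins, Prdx1 and Prdx6 differed most between the surfaces. Prdx1, an abundant cytosolic enzyme that thioredoxin reduces, was 904, 1372 and 1549.7 FPKM in PCL replicates 1, 2 and 3. In ISB-P replicates 1, 2 and 3 it was 1558, 2369 and 3402 FPKM, and on TCP 535. All ISB-P libraries lay above all PCL libraries, by a narrow margin between PCL replicate 3 and ISB-P replicate 1, and TCP lay under all of them. Prdx1 averaged 1275 ± 333 FPKM (SD, n = 3) over the PCL libraries and 2443 ± 924 (SD, n = 3) over those of ISB-P. Within replicates 1, 2 and 3 the ISB-P level was 1.72, 1.73 and 2.20 times that of PCL.

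Prdx6, which reduces lipid peroxides with glutathione and also has phospholipase activity, was 261, 276 and 277 FPKM on PCL. On ISB-P it was 355, 365 and 405 FPKM, and on TCP 109.8. No library of one film reached the range of the other, and the lowest film library was 2.38 times the TCP value. Within replicates 1, 2 and 3 the ratio of ISB-P to PCL was 1.36, 1.32 and 1.47. Prdx6 was the fourth gene by level on PCL and the second on ISB-P, where its 375 ± 26.5 FPKM (SD, n = 3) did not differ from the 363 ± 27.6 of Prdx5 beyond their spread.

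Prdx3, the mitochondrial peroxiredoxin, was 83.5, 114 and 112 FPKM on PCL, 90.5, 121 and 153 on ISB-P and 64.5 on TCP. The films overlapped, and within each replicate number the ISB-P library was the higher. Prdx2, a cytosolic enzyme best known from red cells, was 265, 345 and 330.0 FPKM on PCL, 304, 345 and 313 on ISB-P and 269 on TCP, with overlapping films. Prdx5, which is found in mitochondria, peroxisomes and the cytosol, was 400.3, 351 and 368 FPKM on PCL, 395, 348 and 346 on ISB-P and 285 on TCP. It was under all film libraries on TCP, and the films overlapped. The gene Trmt112 overlaps Prdx5 in the RefSeq annotation and was 93.8 to 105 FPKM on the films.

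The RefSeq table lists gene copies or pseudogenes named after some of these genes, 8 for Prdx1, 4 for Gpx4, 3 for Prdx6 and 1 for Prdx3. None of them is among the symbols measured. Reads that match both a gene and a copy may have been assigned to either, so these levels are uncertain to that extent.

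Catalase was 106, 115 and 119.8 FPKM on PCL, 127, 135 and 145 on ISB-P and 84.4 on TCP. All ISB-P libraries lay above all PCL libraries and TCP lay under both films. Cat averaged 114 ± 7.11 FPKM (SD, n = 3) over the PCL libraries and 136 ± 9.08 (SD, n = 3) over those of ISB-P, and the ratio within replicates 1, 2 and 3 was 1.20, 1.17 and 1.21.

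In the test of ISB-P against PCL over 9467 genes with limma, 0 of the 10 genes passed an adjusted p under 0.05, where 1.72% of all tested genes did (1.10% higher and 0.623% lower on ISB-P). An unadjusted p under 0.05 was found for 2 of the 10, Prdx1 and Prdx6, against 12.1% of all tested genes. The log2 difference was 0.90 for Prdx1 (standard error 0.32, adjusted p = 0.303), 0.46 for Prdx6 (standard error 0.11, adjusted p = 0.125) and 0.26 for Cat (standard error 0.12, adjusted p = 0.499). For Prdx3 it was 0.21 (standard error 0.23, adjusted p = 0.880), and for Prdx2 and Prdx5 0.04 and -0.04. The 3 genes without overlap, Prdx1, Prdx6 and Cat, each had p = 0.1 in the two-sided exact permutation test, the smallest p that 3 libraries against 3 allow. Of all tested genes, 8.17% had all 3 ISB-P libraries above the 3 of PCL, and 9.54% had them all below, where none of the 10 genes lay. The median log2 difference of the 10 genes was 0.06, and that of all tested genes was 0.02.

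The labels number the replicates of each film but do not say that same-numbered libraries were made together. In these same data same-numbered libraries deviated together, least so for replicate 2 (r = 0.431). A fit with the replicate number as a block compares ISB-P and PCL within each number, and its calls rest on that pairing. In this fit Prdx1, Prdx6 and Cat rose on ISB-P, with limma adjusted p-values of 1.48e-04, 0.00158 and 0.0217. Prdx1 was 1.87-fold higher, Prdx6 1.38-fold and Cat 1.19-fold, and each was higher in 3 of 3 pairs. None of the 10 genes fell. These 3 genes stand against 13.0% of all tested genes that were called higher on ISB-P with the block, and 24.4% called in either direction. The split of all calls depended on the scaling. With the block 1228 of 2307 calls were higher on ISB-P, and after scaling to a common total 714 of 2827 were. Without the block the split was 104 of 163, and 70 of 140 after that scaling. With the block the standard error of Prdx1 was 0.08 on the log2 scale, against 0.32 without it. Prdx3 had an adjusted p of 0.0989 and the other 6 genes had 0.553 or more. The Cat call was lost with the block under quantile normalization and under scaling to a common total, where its log2 difference was 0.12 and 0.14 (adjusted p = 0.173 and 0.113). It was also lost without replicate 1 or replicate 2, where the difference was 0.25 and 0.27 (adjusted p = 0.165 and 0.101) against 0.26 with all 3 pairs. Prdx1 and Prdx6 kept their calls with the block in all of these fits.

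**Figure D2:**
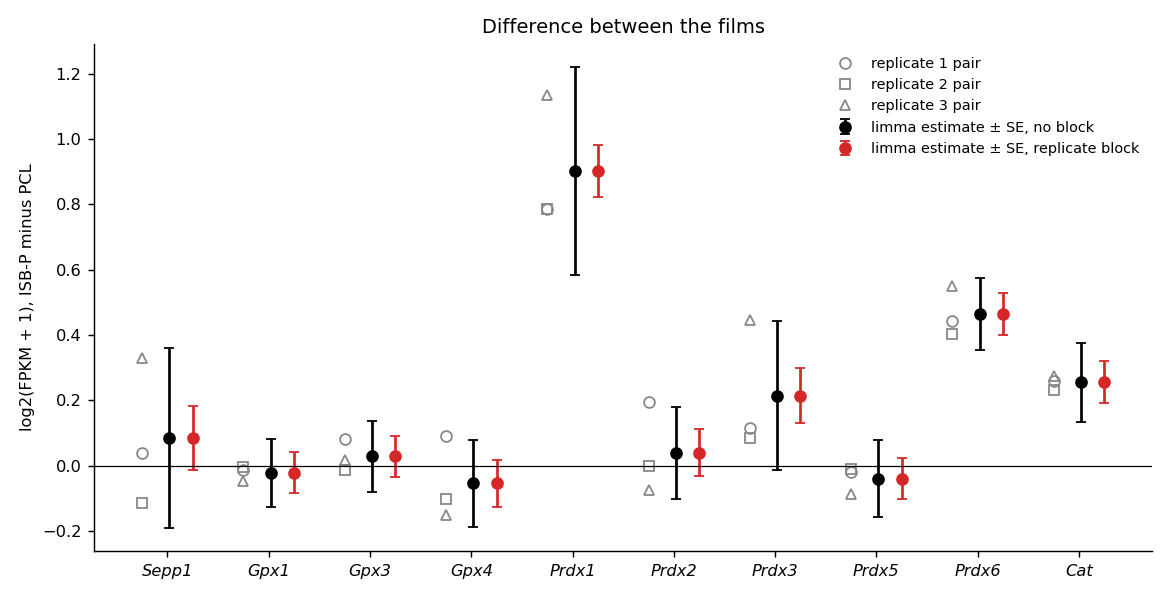
Difference in log2(FPKM + 1) between ISB-P and PCL (vertical axis) for each of the 10 genes, with open symbols for the 3 pairs of same-numbered libraries, black for the limma estimate and its standard error, and red for the same with the replicate number as a block. For Prdx1, Prdx3, Prdx6 and Cat all 3 pairs lie above 0, and the standard error of Prdx1 falls from 0.32 to 0.08 with the block.

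Prdx1 made up a larger part of the summed level of the 10 genes on the films than on TCP. It was the most abundant of the 10 genes on every surface, and its level was 24.2% of their sum on TCP, 40.0% ± 5.59 (SD, n = 3) on PCL and 53.6% ± 9.0 (SD, n = 3) on ISB-P. The films overlapped in this share, with 44.7% in PCL replicate 3 and 44.4% in ISB-P replicate 1. The sum of the 10 was 2214 FPKM on TCP, 3152 ± 419 for PCL and 4452 ± 972 for ISB-P. Without Prdx1 the other 9 summed to 1679 FPKM on TCP, 1877 ± 91.2 for PCL and 2009 ± 52.3 for ISB-P. Among all symbols Prdx1 ranked 156th by level on TCP, 105th, 47th and 46th in PCL replicates 1, 2 and 3, and 51st, 28th and 15th in ISB-P replicates 1, 2 and 3. Over the 6 film libraries the coefficient of variation was 48.0% for Prdx1, 26.4% for Sepp1, 22.0% for Prdx3 and 18.4% for Prdx6, and it was under 10% for 5 genes, the glutathione peroxidases, Prdx2 and Prdx5. On both films replicate 1 was the lowest library for 7 of the 10 genes, the exceptions being Gpx1, Gpx3 and Prdx5.

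On TCP, 1 of the 10 genes, Sepp1, was over 2-fold above the film mean on the log2(FPKM + 1) scale, where 3.49% of all tested genes were. Prdx1 and Prdx6 were over 2-fold under it, where 6.13% of all tested genes were. Their log2 differences, TCP minus films, were -1.67 and -1.53. Prdx3 followed at -0.76, Cat at -0.55 and Prdx5 at -0.36, and Gpx3 was at 0.64. The TCP value lay above all 6 film libraries for 3 genes, Sepp1, Gpx1 and Gpx3, and under all 6 for 5 genes, Prdx1, Prdx3, Prdx5, Prdx6 and Cat. Of all tested genes, 25.4% lay above all films and 29.7% under all of them. Prdx1 was 1.69 times higher in its lowest film library than on TCP. Against the replicate 1 libraries of the films alone, 3 genes again differed by over 2-fold, and scaling to a common total shifted the median of all tested genes for this difference by 0.12. For ISB-P minus PCL the same scaling shifted that median by -0.10.

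**Figure D3:**
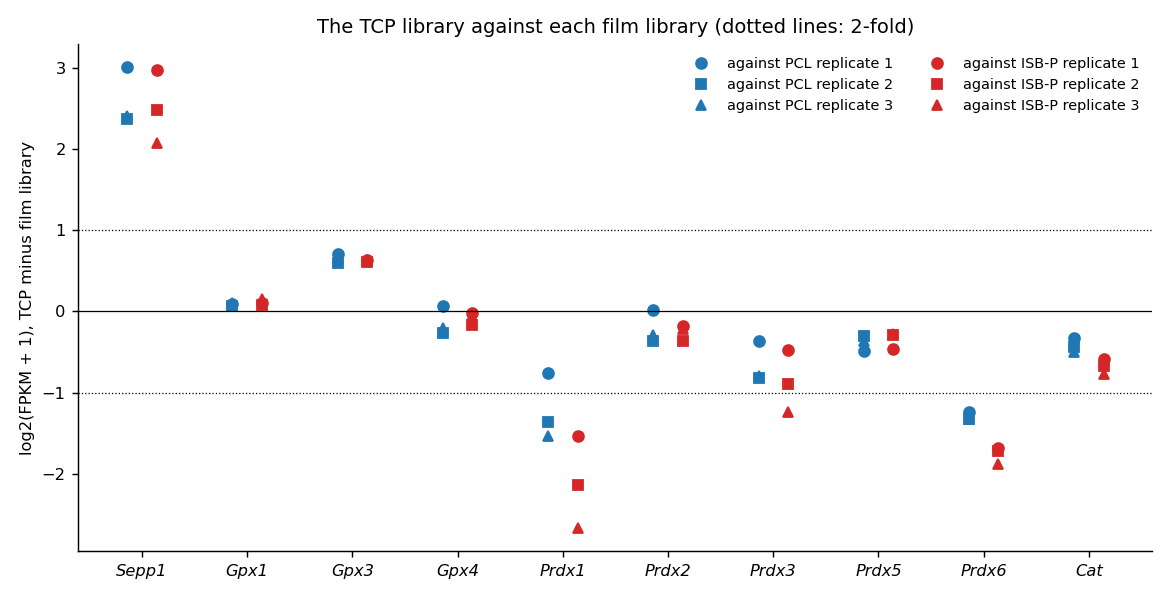
Difference in log2(FPKM + 1) between the TCP library and each of the 6 film libraries (vertical axis, TCP minus film) for each of the 10 genes, with PCL in blue, ISB-P in red, symbols for replicates 1, 2 and 3, and dotted lines at 2-fold. Sepp1 lies above the upper line against all 6 libraries, and Prdx6 lies under the lower line against all 6.

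Genes that restore peroxiredoxins and glutathione were described from a list of 15. All 15 genes of this list were tested, and 1 of them, Srxn1, passed an adjusted p under 0.05, higher on ISB-P. Srxn1, the sulfiredoxin that rescues overoxidized peroxiredoxins, was 374, 379 and 376 FPKM on PCL and 617, 598 and 587 on ISB-P, with 87.3 on TCP. The films were far apart next to their spread, with a log2 difference of 0.67 (standard error 0.10, adjusted p = 0.0287 in limma). Of the 15, 5 had an unadjusted p under 0.05, against 12.1% of all tested genes. With the replicate block 6 of the 15 rose and none fell, where 13.0% of all tested genes were called higher and 11.4% lower. They were Srxn1 (adjusted p = 1.59e-04), Txn1, Gsr, Gclc, Gclm and Slc7a11, and the last had the largest log2 difference, 1.79 (standard error 0.12 with the block, adjusted p = 3.07e-05).

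Slc7a11, the cystine transporter that feeds glutathione synthesis, was 9.44, 16.8 and 21.1 FPKM on PCL, 32.2, 50.1 and 98.6 on ISB-P and 0.287 on TCP. Txn1, the cytosolic thioredoxin, was 2199.8, 1797 and 1766 FPKM on PCL, 2774, 2538 and 2398 on ISB-P and 1274 on TCP. The films did not overlap for either gene. Gclm and Gclc, the subunits of the enzyme that starts glutathione synthesis, were 32.1 ± 7.25 and 109.6 ± 16.2 FPKM (SD, n = 3) on PCL, 54.1 ± 12.4 and 145 ± 19.4 on ISB-P, and 7.19 and 12.8 on TCP. Gsr, which regenerates glutathione, was 74.7 ± 11.6 FPKM on PCL, 95.5 ± 16.8 on ISB-P and 17.0 on TCP. In the TCP library 9 of the 15 genes lay under all film libraries, as 29.7% of all tested genes did, and 5 were over 2-fold under the film mean, as 6.13% were. Txn2, Glrx and Glrx5 were at -0.057, -0.20 and -0.19 on the log2 scale, and Sesn1, Sesn2 and Sesn3 were at 0.38, 0.19 and 0.26.

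**Figure D4:**
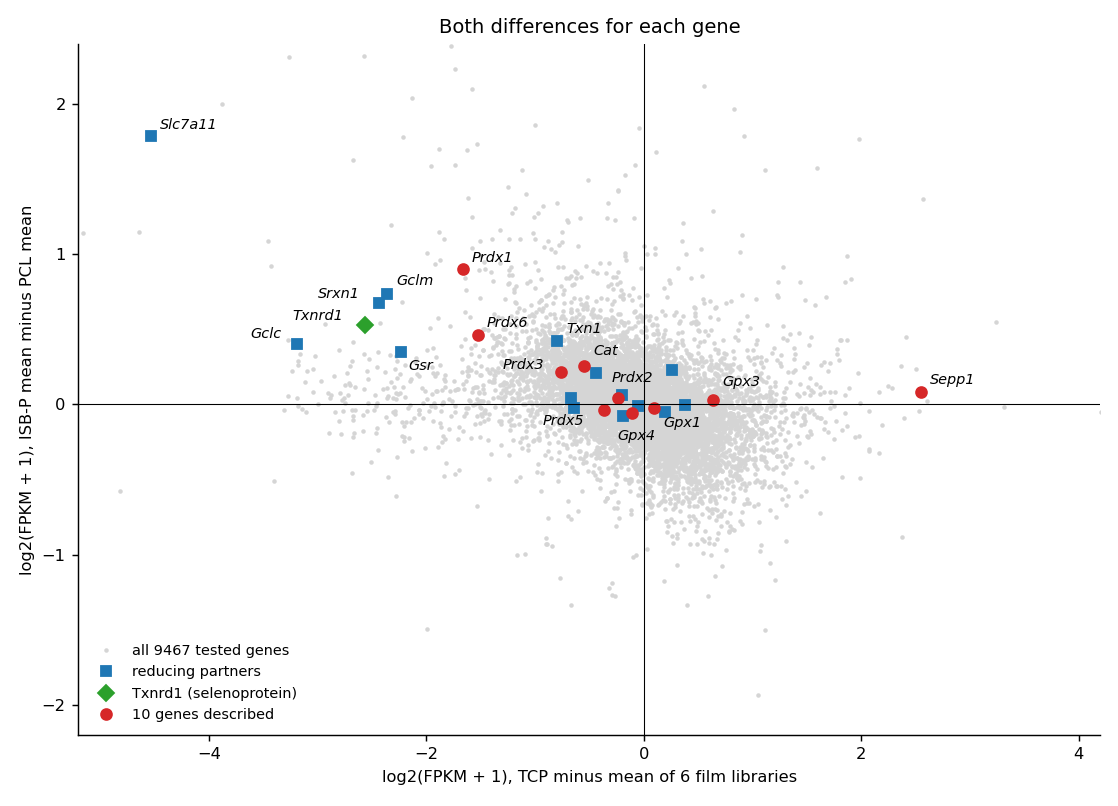
Log2(FPKM + 1) of TCP minus the mean of the 6 film libraries (horizontal axis) and of the ISB-P mean minus the PCL mean (vertical axis), both using the film libraries, for 9467 tested genes (grey; 8 lie outside the axes), the 10 genes (red), the 15 reducing partners (blue) and Txnrd1 (green). Sepp1 lies farthest to the right of the 10, at 2.55, and Gpx3 follows at 0.64. Prdx1 and Prdx6 lie on the upper left with Slc7a11, Gclm, Srxn1, Txnrd1, Gclc and Gsr.

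Of 19 other selenoproteins, 16 were among the symbols and 11 were tested. None passed without the block, and with it 1 rose and 2 fell, 3 of 11 where 24.4% of all tested genes were called, so the count is near the background. Txnrd1, the selenoprotein that reduces thioredoxin, rose from 373 ± 41.3 FPKM (SD, n = 3) on PCL to 539 ± 62.8 (SD, n = 3) on ISB-P with the block (log2 difference 0.53, standard error 0.06, adjusted p = 5.52e-04). It was 74.6 FPKM on TCP and had an adjusted p of 0.162 without the block. Sephs2, the selenoprotein that makes the selenium donor for selenocysteine, fell with the block from 21.2 ± 2.04 to 15.7 ± 0.965 FPKM (adjusted p = 0.0135), and Selo from 6.91 ± 0.515 to 4.87 ± 0.742 (adjusted p = 0.0179). Their adjusted p-values without the block were 0.240 and 0.239. Sep15, a selenoprotein of the endoplasmic reticulum, was 361 FPKM on TCP, 376 ± 59.4 for PCL and 411 ± 68.8 for ISB-P. Sepw1 was listed at 0 in all 7 libraries, and Txnrd1 was the only gene of the 11 that was over 2-fold different on TCP.

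Of the genes of selenocysteine synthesis and insertion, none of the 9 passed without the block, and with it 1, the selenocysteine lyase Scly, rose from 8.73 ± 0.570 FPKM (SD, n = 3) on PCL to 11.8 ± 2.51 (SD, n = 3) on ISB-P (adjusted p = 0.0308, or 0.458 without the block). This count of 1 of 9 is under the 13.0% of all tested genes called higher with the block. Rpl30, a ribosomal protein that also binds selenocysteine insertion elements, was 764 FPKM on TCP, 1001 ± 84.7 for PCL and 1119.9 ± 208 for ISB-P, and Trnau1ap was 23.3, 31.2 ± 1.94 and 32.6 ± 1.65 FPKM. On TCP 7 of the 9 lay under all film libraries, against 29.7% of all tested genes, and none was over 2-fold under the film mean.

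Of 15 listed sources of hydrogen peroxide 9 were tested. None passed without the block, and with it 2 passed, Sod1, which rose, and Xdh, which fell. This count of 2 of 9 is near the background of 24.4% of all tested genes. Sod1, the cytosolic superoxide dismutase, was 314 ± 34.1 FPKM (SD, n = 3) on PCL, 367 ± 23.2 (SD, n = 3) on ISB-P and 213 on TCP (adjusted p = 0.0310 with the block, 0.603 without). Xdh, xanthine dehydrogenase, was 35.9 ± 1.18 FPKM on PCL, 26.4 ± 1.74 on ISB-P and 29.2 on TCP (adjusted p = 0.00382 with the block, 0.173 without). Cyba, a subunit of NADPH oxidases, was 136 FPKM on TCP, 99.7 ± 15.2 for PCL and 93.2 ± 24.4 for ISB-P. Cybb, the catalytic subunit found in phagocytes, was the only gene of the 9 over 2-fold higher on TCP, where 3.49% of all tested genes were. Its level was low, at 3.79 FPKM on TCP and 0.874 to 1.98 on the films. Sod3 lay just under that limit (log2 difference 0.997), at 112 FPKM on TCP and 38.5 to 70.2 on the films.

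Of 16 genes of peroxisome import and membrane, where catalase resides, 12 were tested and none passed without the block. Among the genes that passed with it, Pex11g, a membrane protein of peroxisomes, rose and Pex6, which recycles the import receptor, fell. Pex11g was 1.23 ± 0.158 FPKM on PCL and 2.00 ± 0.339 on ISB-P (adjusted p = 0.0156, or 0.185 without the block), and Pex6 was 10.5 ± 1.40 and 8.09 ± 2.03 FPKM (adjusted p = 0.0300, or 0.581 without). Pex13 was 22.2 FPKM on TCP, 27.1 ± 5.09 for PCL and 29.7 ± 10.5 for ISB-P. Pex5, the import receptor of catalase, was under 1 FPKM in every library.

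Of the markers of cell types, 8 mesenchymal, 4 macrophage and 2 adipocyte genes were tested. Without the block 0 of them passed between the films, where 1.72% of all tested genes did. With the block 1 of the 8, 2 of the 4 and 0 of the 2 passed, where 24.4% of all tested genes did. Pdgfrb fell with the block from 166 ± 11.6 FPKM (SD, n = 3) on PCL to 97.8 ± 11.5 (SD, n = 3) on ISB-P (log2 difference -0.76, adjusted p = 1.41e-04, or 0.0510 without the block). Lyz2 rose (adjusted p = 0.0299) and Cd14 fell (adjusted p = 0.00663) with the block, so the macrophage list had no common direction between the films, and its summed level was 44.8 FPKM on PCL and 45.2 on ISB-P.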

How the data were processed

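RNA of 7 libraries was prepared with a stranded mRNA kit and sequenced by the study. The deposited values are FPKM per gene symbol, which the authors made, per the labels, with bcl2fastq 2.20.0.422, cutadapt 1.18, TopHat2 2.0.13 and Cuffdiff 2.2.1 on rn5. Use of strand in counting and treatment of reads with several matches are not given in the sources used here. Depth per sample is unknown, so no counting interval was given. For each pair of libraries, the ratio of values under 0.06 FPKM was searched for a common step. At most 45.5% of genes fell in the fullest window of 0.15 on the log2 scale, so reads were not recovered. No 2 files held identical values.

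The 10 genes and all lists were chosen with earlier results of these data known. ISB-P was compared with PCL (3 libraries each) with limma 3.58.1 in R 4.3.3 (lmFit, eBayes with trend, two-sided) on log2(FPKM + 1), for the 9467 genes that reached 1 FPKM in 3 or more of the 6 libraries on films. P-values were adjusted by Benjamini-Hochberg over all tested genes and called under 0.05. The TCP library, 1 in number, was not tested. Same-numbered libraries of the films had deviations from their group means that correlated at 0.431 to 0.887. For different numbers the highest r was 0.177 and the mean was -0.356. That mean is partly fixed in advance, because deviations from a group mean cancel within each film. A fit with the replicate number as a block was run, though the labels do not state such a pairing. Genes named were the 10, the called and the 2 most abundant genes of each list, and the 5 most like Sepp1. Cybb, Gpx7, Txn2, Glrx, Glrx5, Sesn1, Sesn2, Sesn3, Sepw1, Pex5, Ptprc, Cd163, Adipoq, Lep, Gpx2, Gpx5 and Gpx6 were named after their values were seen. So were Nt5e, Eng and Sod3. One result of the peroxisome list is not reported here. The fit was also run on simulated data, and the outcome of that run is not given here. Promoters came from RefSeq (GRCr8). Other scalings, pseudocounts, filters and left-out libraries were tried as alternatives.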

Additional observations from a re-analysis of the deposited data

How the results depend on the processing

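Limits. Depth is unknown, TCP had 1 library, and each film had 3, so a gene had to differ by much more than its spread to be called. None of the 10 genes was called in any fit without the block, limma giving 0 in each. The replicate block changed the calls of Prdx1, Prdx6 and Cat and of no other gene of the 10. The block with other scalings, the block without a pair and TCP against the replicate 1 films were chosen after seeing the data.

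Among all tested genes 163 were called. The number was 105 with at least 1 FPKM in all 6 film libraries, 65 when genes averaging 16 FPKM or more on either film were called by a fold over 2 with p under 0.1 before adjustment, and 20 to 113 without 1 library, lowest without PCL replicate 2 and highest without ISB-P replicate 3. With the replicate block it was 2307, with upper quartile scaling added 2321, with quantile normalization added 2307, and with scaling to a common total added 2827. With the block and without replicate 1, 2 or 3 it was 1773, 2004 or 3137, where 1 residual degree of freedom per gene makes the spread rest on all genes. Of the 10 genes, 3 were called with the block alone and with upper quartile scaling, 2 with quantile normalization or a common total, 2 without replicate 1 or 2, and 3 without replicate 3. The genes past 2-fold on TCP numbered 3 in all 15 alternatives, which all use the same TCP library. A change of the filter on low values cannot alter this difference for a gene.

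ISB-P minus PCL was -0.14 for Gpx3 and -0.10 for Prdx2 under quantile normalization, and -0.023 for Sepp1, -0.087 for Gpx3 and -0.076 for Prdx2 under a common total, with or without the block. With the block it was -0.038 for Prdx2 without replicate 1 and -0.036 for Sepp1 without replicate 3. Without 1 library it ranged from -0.13 to 0.32 for Sepp1, -0.038 to 7.83e-05 for Gpx1, -0.0014 to 0.059 for Gpx3, -0.16 to 0.012 for Gpx4, -0.076 to 0.11 for Prdx2 and -0.10 to 0.013 for Prdx5. The cause was not tested. Without 1 library Prdx1 ranged from 0.63 to 1.19, Prdx3 from 0.033 to 0.41, Prdx6 from 0.41 to 0.50 and Cat from 0.21 to 0.30, and under the other scalings the lowest values of Prdx1, Prdx6 and Cat were 0.73, 0.31 and 0.12. TCP minus films, -0.11 for Gpx4, was 0.094 under quantile normalization, 0.018 under a common total and 0.024 against the replicate 1 films.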
